A study of Mus musculus with 14 samples.

Results

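The 57 genes described here make up the adipocyte and its lipid metabolism: the transcription factors that set adipocyte identity, the hormones the adipocyte secretes, and the proteins that take up, bind, synthesize, store, release and burn fatty acids. Their rows were taken from the deposited methylation table by gene symbol alone, and no measured value entered that rule. Of these genes 33 had at least 1 measured CpG site, with 180 of the 75761 sites in the table, and the other 24 had none. Sites whose level varied little were set aside before testing (standard deviation over the 14 mice under 0.05 on the 0 to 1 scale), which left 151 sites in 29 member genes among 65610 sites over all genes.

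DNA methylation was measured by reduced-representation bisulfite sequencing (RRBS) in the contralateral mammary fat pad of female wild-type C57BL/6N mice carrying E0771 tumors, which were 8 weeks old on arrival. RRBS reads short fragments cut by the enzyme MspI, which cuts at CCGG whether or not the inner cytosine is methylated. All 14 mice, the controls included, had been injected with E0771 mammary cancer cells in the 4th mammary fat pad 22 weeks after randomization to diet. The tissue was taken 4 weeks after injection. CON-LFD mice (n = 3) ate a diet with 10% of energy from fat throughout and had sham surgery, and DIO-HFD mice (n = 4) ate a 60% fat diet throughout and had sham surgery. DIO-LFD mice (n = 3) ate the 60% fat diet for 15 weeks, had sham surgery and were then switched to the 10% fat diet. DIO-VSG mice (n = 4) ate the 60% fat diet for the same 15 weeks, underwent vertical sleeve gastrectomy (VSG) and then ate the 10% fat diet. The samples are separate mice. Each value is the share of reads that called the cytosine methylated, given here as a percent, and the number of reads behind it is unknown.

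In white adipose tissue, fatty acids are taken up from the blood or made from glucose, joined to glycerol as triglyceride and kept in a single large lipid droplet, from which lipases release them again in fasting. The C/EBP transcription factors switch on this program during differentiation, and SREBP and ChREBP raise the enzymes of fat synthesis when insulin and glucose are plentiful. Methylation of CpG sites at a promoter is commonly low where the gene is in use, and CpG islands, stretches dense in CpG, are mostly unmethylated in normal tissue. RNA of this tissue was not analysed here, so neither the expression of the members nor the tissue label was checked against expressed markers. The fat pad is a mixture of cells, and a changed share of a cell type cannot be told apart from changed methylation within a cell type.

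The windows that carry the results below are printed from mm10 (GRCm38.p6), 5′ to 3′ on the strand of the gene. Positions are counted in bases from the annotated transcript start that the deposited table gives, with upstream as negative. Capitals mark the measured CpG sites, except in the first window, where they mark the CCGG cut sites at both ends of 1 MspI fragment. The first, shown because its ends moved in opposite directions, spans positions -267 and -138 of Cebpb (chr2:167688638-167688788, + strand).
Cebpb fragment: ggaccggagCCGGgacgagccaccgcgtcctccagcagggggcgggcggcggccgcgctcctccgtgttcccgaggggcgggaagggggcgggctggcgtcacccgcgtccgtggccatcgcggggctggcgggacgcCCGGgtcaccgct
Farther upstream of Cebpb, sites at -1016, -990 and -901 (chr2:167687889-167688025, + strand) and the site at -479 (chr2:167688416-167688457, + strand) lie in an intron of the overlapping gene Tmem189. They are shown because DIO-HFD replicates 2 to 4 were low there.
Cebpb upstream: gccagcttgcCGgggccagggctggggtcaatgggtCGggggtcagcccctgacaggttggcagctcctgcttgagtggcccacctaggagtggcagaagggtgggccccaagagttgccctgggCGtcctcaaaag
Cebpb -479: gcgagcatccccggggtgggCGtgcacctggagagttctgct
The coding exon of Cfd with sites from +1157 to +1381 (chr10:79891998-79892243, + strand) is shown because it holds 10 of the 20 Cfd sites.
Cfd exon: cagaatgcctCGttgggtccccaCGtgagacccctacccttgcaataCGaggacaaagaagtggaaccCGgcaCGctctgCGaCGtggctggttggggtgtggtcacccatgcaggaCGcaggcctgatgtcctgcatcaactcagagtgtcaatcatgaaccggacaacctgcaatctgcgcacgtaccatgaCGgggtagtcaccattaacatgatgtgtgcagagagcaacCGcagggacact
The last pair, from Lipe, holds the intron site at +2203 (chr7:25387002-25387043, - strand), which had the smallest p of any member, and the exon sites at +3926 and +3975 (chr7:25385235-25385315, - strand), which differed the other way.
Lipe intron: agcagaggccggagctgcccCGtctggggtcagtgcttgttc
Lipe exon: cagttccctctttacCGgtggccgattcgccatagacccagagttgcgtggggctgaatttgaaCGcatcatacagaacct

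RRBS reached the classes of genes unequally. Sites were found for all 3 adipocyte transcription factors, for 4 of 5 lipolysis genes and for 4 of 6 triglyceride synthesis genes, but for 1 of 5 genes of fatty acid uptake and binding and 2 of 7 lipid droplet proteins. Genes with no site included Lep, Retn, Fabp4, Lpl, Cd36, Plin1, Cidea, Cidec, Scd1, Dgat2 and Cpt2, so many of the best known marker genes of the mature adipocyte were not analysed here. The other genes without a site were Cav1, Lipa, Plin2, Plin3, Acaca, Acss2, Scd2, Elovl6, Fads2, Lpin2, Srebf2, Acsl1 and Hadha. Sites were concentrated in a few genes, with 22 in Cpt1b, 20 in Cfd, 20 in Fasn, 14 in Fabp5, 13 in Cebpb, 10 in Plin5, 9 in Pnpla2 and 8 in Srebf1. Cpt1a, Mgll, Ucp2 and Pck1 had sites but none varied enough to be tested.

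Not every site assigned to a member lies in it. All 14 Fabp5 sites lie between 16648 and 45376 bases upstream of the start, and 5 of the 6 Lpin1 sites lie outside the gene. Of the Cfd sites, 13 of 20 lie within Cfd, and the site at +8572 lies in Med16. The single Adipoq site, of the gene for adiponectin, lies 4943 bases upstream and had a mean of 92.9%. That of Ucp1, the uncoupling protein of brown fat, lies in an exon of Tbc1d9 and averaged 95.5%.

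The member sites were a little more methylated than the series as a whole, with a median level of 73.8% against 66.5%. Annotated promoters held 38.9% of the member sites against 25.8% of all sites, and CpG islands held 18.9% against 23.8%. For the 25 members with a promoter site, the site nearest to the start had a mean level between 22.1 and 73.8%, with a median of 46.8%. The lowest was Lipe at -71 and the highest Cfd at +961. At 19 of those 25 genes the nearest site lay within CCGG, the recognition sequence of the enzyme, and 12 of these 19 had a mean between 40 and 60%. Of all CCGG sites in the series, 61.9% in promoter CpG islands and 46.4% in other promoters lay in that range.

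Among the 4 DIO-HFD mice, replicate 1 stood apart. It averaged 72.8% over the tested member sites, above the 59.1, 61.9 and 62.8% of replicates 2, 3 and 4, and it exceeded those 3 at 96 of 151 member sites (63.6%) against 58.8% of all tested sites. Group means over the member sites were 68.1% ± 3.42 in CON-LFD (SD, n = 3), 64.1% ± 5.96 in DIO-HFD (n = 4), 68.3% ± 3.06 in DIO-LFD (n = 3) and 70.4% ± 0.854 in DIO-VSG (n = 4). Over all tested sites they were 63.0% ± 2.11, 59.7% ± 4.38, 63.1% ± 1.93 and 64.6% ± 0.310. Whether the label of DIO-HFD replicate 1 is right was not tested and cannot be told from these values, which bears on each comparison with DIO-HFD. The adjusted tests of member sites and genes against DIO-HFD, other than those on centred values, are therefore given with and without replicate 1. Its removal was among the alternatives listed for every mouse. Counts of higher means, of groups without overlap, by class of site and outside CCGG are given for all 14 mice alone. Which mice shared a cage or a library batch is not given in the labels.

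**Figure D1:**
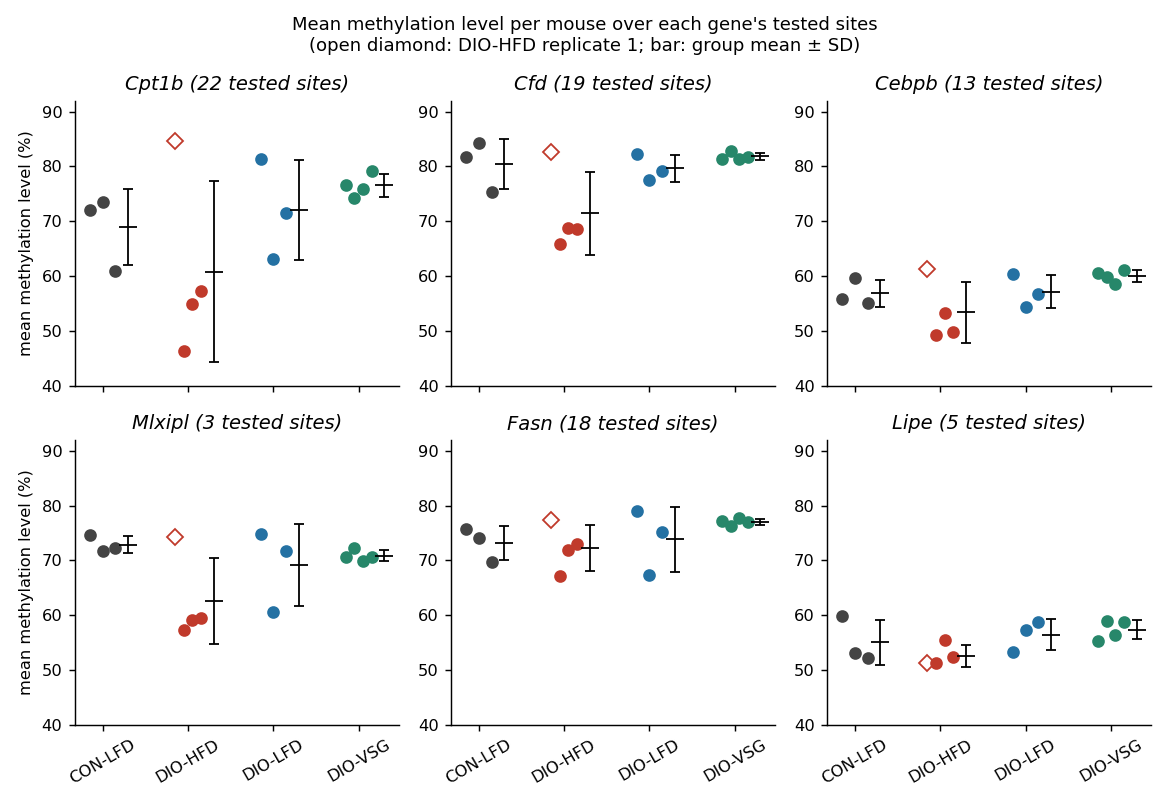
Mean methylation level (percent) over the tested sites of a gene, for Cpt1b, Cfd, Cebpb, Mlxipl, Fasn and Lipe, with 1 point per mouse, 1 column per group and a bar for the group mean ± SD. DIO-HFD replicate 1, the open diamond, is at 84.6% for Cpt1b, above DIO-HFD replicates 2 to 4 at 46.4 to 57.2%, whereas the 4 DIO-VSG mice lie between 74.3 and 79.3%.

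No member site differed between any pair of groups compared once p was adjusted over all 65610 sites. The test was limma on M values (the log2 ratio of methylated to unmethylated share), with Benjamini-Hochberg adjustment. Over all sites the adjusted counts were 0, 2, 2 and 2 (0%, 0.00305%, 0.00305% and 0.00305%) for CON-LFD, DIO-LFD and DIO-VSG against DIO-HFD and for DIO-VSG against DIO-LFD. At an unadjusted p under 0.05, 10 member sites (9 higher) differed in CON-LFD, 8 (7 higher) in DIO-LFD and 27 (25 higher) in DIO-VSG, each relative to DIO-HFD. As shares of the 151 these are 6.62, 5.30 and 17.9%, beside 7.76%, 10.1% and 25.0% of all tested sites, and members were not called more often than other sites. For DIO-VSG against DIO-LFD the count was 5 (3 higher), or 3.31% beside 3.98%. The first 3 comparisons share the same DIO-HFD mice and are not independent of each other.

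Groups did not overlap at 5, 6, 12 and 12 member sites in the same order (3.31, 3.97, 7.95 and 7.95% of 151), beside 4.68%, 4.80%, 7.58% and 7.74% of all sites. Without DIO-HFD replicate 1 many more sites passed the adjusted threshold: 12 member sites (11 higher) in CON-LFD, 17 (15 higher) in DIO-LFD and 48 (46 higher) in DIO-VSG, beside 12.0%, 14.6% and 34.4% of all sites. Of the 151 sites, 112, 116 and 120 had a higher mean M than DIO-HFD in these comparisons, beside 68.1%, 67.7% and 71.3% of all sites. The median over all sites of the difference in mean M from DIO-HFD was 0.29, 0.30 and 0.48, and the median over member sites was 0.28, 0.40 and 0.58. When every mouse was centred on its own median, 73, 86 and 86 of the 151 member sites were on the higher side, beside 49.9%, 50.8% and 49.7% of all sites. For DIO-VSG against DIO-LFD, where 0 member sites passed the adjusted threshold without that mouse (0.00457% of all sites), 103 member sites were higher on average beside 61.7%, and 75 after centring beside 47.2%.

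**Figure D2:**
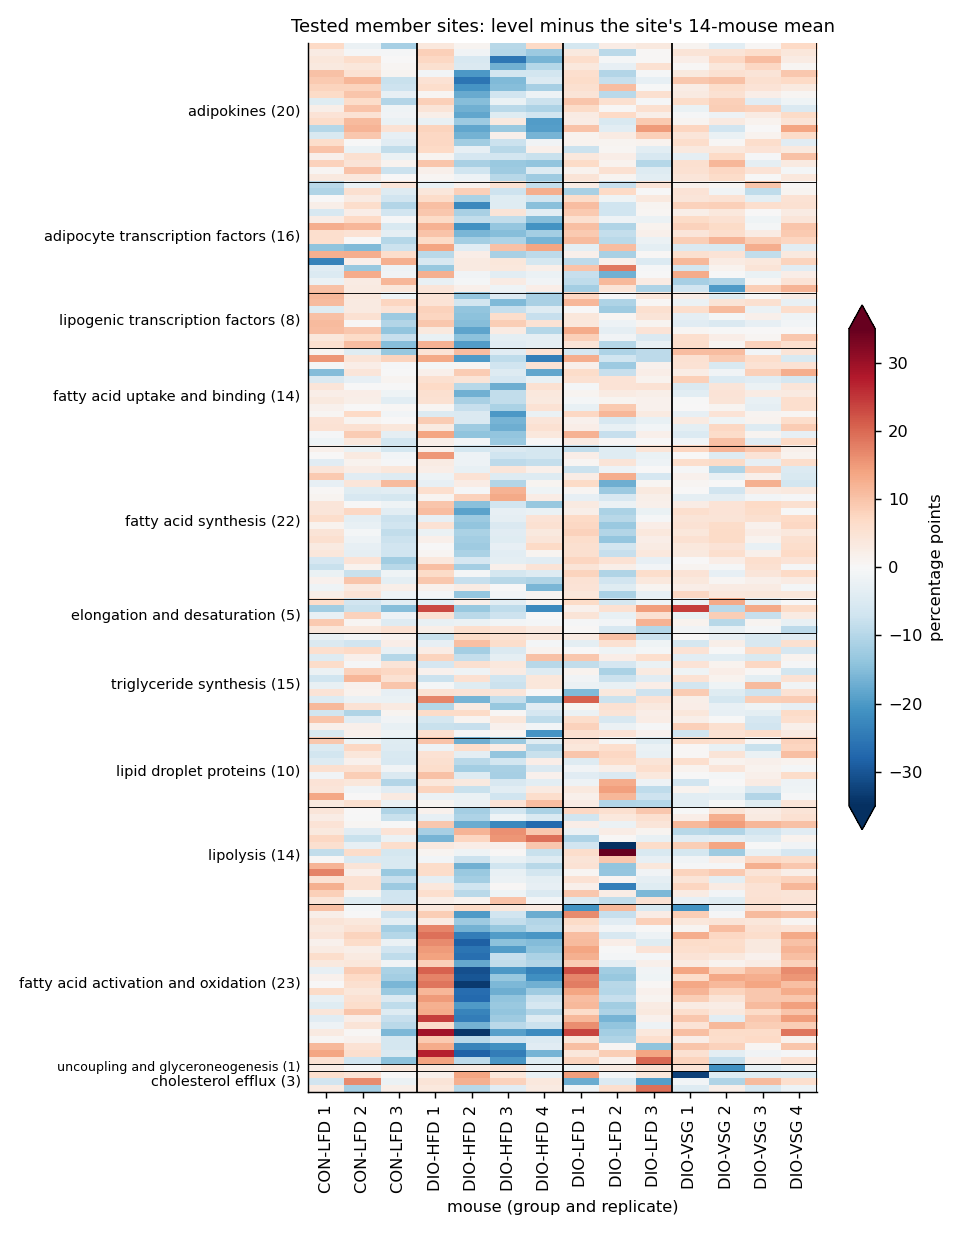
Methylation level of each of the 151 tested member sites (rows, by role) in each of the 14 mice (columns, by group), coloured as the difference in percentage points from the site's mean over the mice, with the scale ending at ±35 points. Blue, for lower levels, is densest in DIO-HFD replicates 2 to 4, and DIO-HFD replicate 1 is mostly red in the rows of fatty acid activation and oxidation.

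Fatty acid oxidation was represented almost entirely by Cpt1b, the muscle-type carnitine palmitoyltransferase that admits long-chain fatty acids to the mitochondrion (chr15:89416405-89425863, - strand). Its 22 sites lie between -654 and +660, all in the annotated promoter and none in a CpG island, and the 5 member sites with the largest spread over the mice (+380, +289, +306, +297 and +609) are all among them. The Cpt1b mean was 72.1, 73.6 and 60.9% in CON-LFD, 84.6, 46.4, 54.9 and 57.2% in DIO-HFD, 81.3, 63.1 and 71.5% in DIO-LFD and 76.7, 74.3, 76.0 and 79.3% in DIO-VSG. DIO-HFD replicate 1 was thus the highest of all mice and the other 3 DIO-HFD mice were the lowest. The mean M was 1.05 ± 0.51 (SE) higher in DIO-VSG than in DIO-HFD, with an unadjusted p of 0.0628 and an adjusted p of 0.222 over 11825 genes (limma). Without DIO-HFD replicate 1 the difference was 1.64 ± 0.34 with an adjusted p of 0.00523.

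The Cpt1b sites moved as a block. Relative to DIO-HFD, all 22 were higher on average in DIO-VSG and in DIO-LFD and 21 in CON-LFD, beside 71.3%, 67.7% and 68.1% of all sites. DIO-HFD replicate 1 exceeded the other 3 DIO-HFD mice at all 22, beside 58.8% of all tested sites. At 9 of the 22 DIO-VSG differed at an unadjusted p under 0.05, beside 25.0% of all sites. Without replicate 1, DIO-VSG passed the adjusted threshold at 20, DIO-LFD at 8 and CON-LFD at 4, beside 34.4%, 14.6% and 12.0% of all sites. At +289 the levels were 46.1, 57.7 and 37.9% in CON-LFD, 69.5, 18.2, 28.7 and 25.2% in DIO-HFD, 71.4, 36.7 and 47.7% in DIO-LFD and 62.7, 56.6, 59.8 and 65.2% in DIO-VSG. The DIO-VSG mice lay between 56.6 and 65.2% there, whereas DIO-LFD replicates spread from 36.7 to 71.4%. At +380 the DIO-HFD values were 78.2, 14.8, 29.7 and 26.5% and the DIO-VSG values 59.3, 55.1, 55.1 and 67.4%. At +609 the DIO-HFD mice had 73.3, 17.9, 21.9 and 29.8%, and CON-LFD and DIO-LFD (41.1 to 60.0%) reached the level of DIO-VSG (42.9 to 51.6%). At +297 and +306 the lowest mouse was DIO-HFD replicate 2, with 35.4% at both, and the highest DIO-HFD replicate 1, with 82.8 and 87.7%. At -641, in the neighbouring Chkb, the DIO-LFD mice had 92.6, 81.8 and 94.2% beside 88.6, 73.2, 77.5 and 75.7% in DIO-HFD, a difference in M of 1.23 with an unadjusted p of 0.0193 and an adjusted p of 0.494 (limma). Without replicate 1 its adjusted p was 0.0328.

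**Figure D3:**
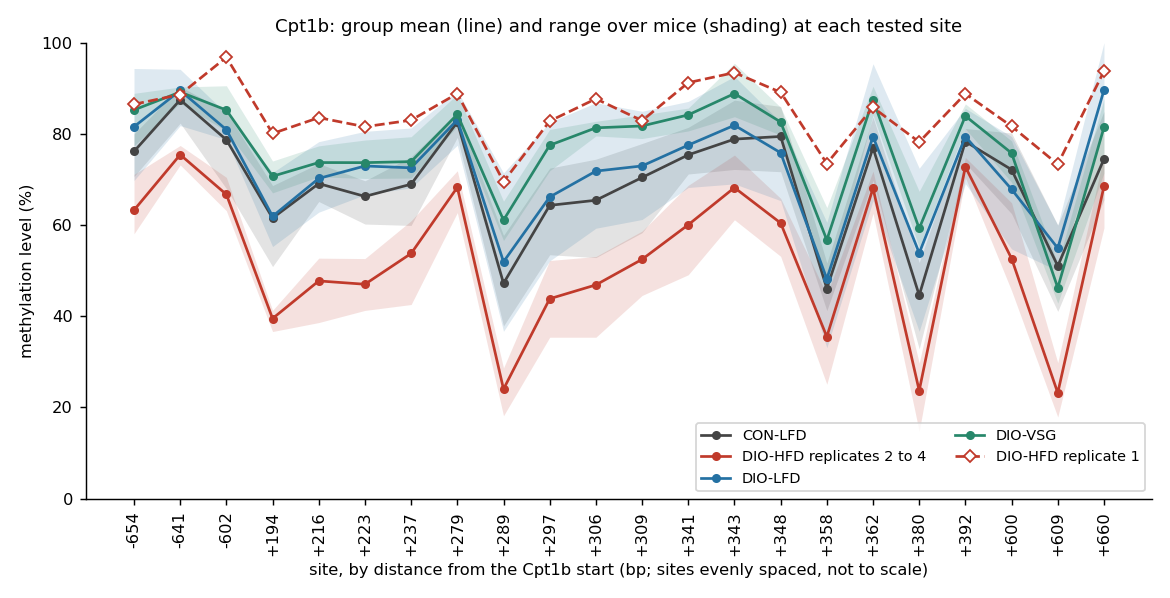
Methylation level (percent) at each of the 22 Cpt1b sites, in order of distance from the transcript start in bases and evenly spaced, with a line for the mean and shading for the range over mice of each group. DIO-HFD replicate 1 is drawn apart as a dashed line, which lies above the shading of DIO-HFD replicates 2 to 4 at all 22 sites.

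Of 3 classes of member sites, promoter sites outside CpG islands had the largest median difference, and Cpt1b supplied most of them. In DIO-VSG against DIO-HFD, 15 of 43 such member sites had an unadjusted p under 0.05 (26.5% of all such sites), with a median difference of 11.5 percentage points beside 5.29 over all such sites. Cpt1b alone gave 9 of these 15, with a median of 15.4 points over its 22 sites. The other 21 sites, in 11 genes, gave 6, with a median of 4.59 points. None of 21 member sites in promoter CpG islands was called (12.1% of all such sites), where the median difference was -0.904 points. Outside promoters 12 of 87 were called (26.9%), with a median of 7.05 points beside 6.08 over all such sites.

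Among the adipokines, Cfd encodes adipsin, complement factor D, which adipocytes secrete and whose level falls in obese rodents (chr10:79890853-79892655, + strand). Its mean over 19 tested sites was 81.7, 84.4 and 75.4% in CON-LFD, 82.7, 65.8, 68.7 and 68.6% in DIO-HFD, 82.3, 77.5 and 79.3% in DIO-LFD and 81.5, 82.7, 81.4 and 81.7% in DIO-VSG. DIO-HFD replicates 2 to 4 lay below all other mice and replicate 1 lay among them. Relative to DIO-HFD the mean M was 0.83 ± 0.29 (SE) higher in DIO-VSG (unadjusted p of 0.0143, adjusted p of 0.162), 0.71 ± 0.31 higher in CON-LFD (0.0413 and 0.659) and 0.61 ± 0.31 higher in DIO-LFD (0.0739 and 0.551; limma). Without replicate 1 the adjusted p was 0.00289, 0.0233 and 0.0239. Cfd was the sole member gene to pass in all 3 comparisons under that setting.

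All 19 tested Cfd sites were higher on average in DIO-VSG and in CON-LFD than in DIO-HFD, and 18 in DIO-LFD. The shares of all sites were 71.3%, 68.1% and 67.7% in that order. At the coding exon site +961 CON-LFD had 84.1, 78.9 and 74.7%, DIO-HFD 72.9, 53.7, 67.4 and 67.2%, DIO-LFD 79.6, 63.4 and 73.3% and DIO-VSG 77.2, 79.0, 78.4 and 83.1%. Neither CON-LFD nor DIO-VSG overlapped with DIO-HFD, with unadjusted p of 0.0186 and 0.0122 and adjusted p of 0.611 and 0.150, or 0.0571 and 0.0213 without replicate 1 (limma). At +8572, in Med16, the DIO-VSG mice had 93.9, 96.0, 89.5 and 93.5% and the DIO-HFD mice 90.5, 87.9, 80.0 and 77.3% (M higher by 1.28, unadjusted p of 0.00792, adjusted p of 0.150, and 0.0134 without replicate 1; limma). Sites of a single exon are read on shared fragments, and the 10 sites in the printed Cfd exon are therefore not 10 independent observations.

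Cebpb encodes C/EBPβ, which acts early in adipocyte differentiation ahead of C/EBPα (chr2:167688915-167690418, + strand). At -479 the levels were 29.5, 23.8 and 13.6% in CON-LFD, 30.2, 11.8, 12.8 and 7.4% in DIO-HFD, 34.7, 14.3 and 21.4% in DIO-LFD and 32.2, 35.6, 32.1 and 31.0% in DIO-VSG. All 4 DIO-VSG mice lay above all 4 DIO-HFD mice, with DIO-HFD replicate 1 the nearest. The mean M was 1.52 ± 0.49 (SE) higher (unadjusted p of 0.00863, adjusted p of 0.150, and 0.00512 without replicate 1; limma). The site at -990, picked after its values were seen, gave 74.5, 73.2 and 56.3% in CON-LFD, 73.9, 40.4, 48.1 and 40.9% in DIO-HFD, 72.2, 51.2 and 62.9% in DIO-LFD and 69.7, 68.4, 61.1 and 71.3% in DIO-VSG. DIO-HFD replicates 2 to 4 were again the lowest mice. Without replicate 1, 6 of the 13 Cebpb sites passed the adjusted threshold in DIO-VSG, where 34.4% of all sites did. The Cebpb gene mean had an unadjusted p of 0.0695 and an adjusted p of 0.233 in DIO-VSG against DIO-HFD (limma). Without replicate 1 its adjusted p was 0.0110. Cebpa and Cebpd, with 2 and 1 tested sites, had none at an unadjusted p under 0.05 in DIO-VSG against DIO-HFD, beside 25.0% of all sites.

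The pair of sites at -267 and -138 of Cebpb, in the first printed window, had the largest differences in M of any tested member site between CON-LFD and DIO-HFD. At -267 the levels were 72.0, 70.7 and 78.6% in CON-LFD, 100, 82.2, 96.5 and 100% in DIO-HFD, 82.8, 97.1 and 82.8% in DIO-LFD and 81.1, 80.8, 98.8 and 82.6% in DIO-VSG. At -138 they were 23.8, 24.1 and 17.6%, then 1.9, 13.7, 0 and 2.2%, then 13.1, 0 and 11.8%, then 16.8, 16.0, 2.6 and 14.6% in the same order of groups. The CON-LFD mice lay outside the DIO-HFD range at both sites, lower at -267 and higher at -138. The differences in M were -3.51 ± 1.12 (SE) and 3.01 ± 1.05, with unadjusted p of 0.00775 and 0.0131 and an adjusted p of 0.611 for both, or 0.113 and 0.119 without replicate 1 (limma). The levels of the pair summed to between 94.6 and 102% in each of the 14 mice.

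That sum of about 100% recurred at the ends of other MspI fragments, a pattern noticed after the values were seen. A fragment here is the stretch between neighbouring CCGG sites with a measured CpG at each. Members held 13 such fragments in 9 genes, and at 8 of them (61.5%, in 6 genes) the mean of the summed levels lay between 90 and 110%. The median Pearson correlation of the ends over the 14 mice was -0.918. The 4 member pairs that lay 2 fragments apart had no mean sum in that range, a median sum of 139% and a median correlation of 0.584. These correlations are descriptions over the same mice, whose ends share reads and depth. Of 7532 fragments in the series 48.7% summed to 90 to 110%, and 78.5% of the 2201 in promoter CpG islands did, where the median correlation was -0.835. Pairs 2 fragments apart summed to that range less often, at 26.8% of 3077 overall and 43.8% of 621 in promoter CpG islands.

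Besides the printed fragment, Cebpb had a second one with this property, whose ends at +725 and +1067 summed to 95.9% on average (r of -0.918). At Pnpla2, the adipose triglyceride lipase that takes the first step of lipolysis, the ends at +21 and +321 summed to 96.8% on average (r of -0.976). At Agpat2, an acyltransferase of triglyceride synthesis, the ends at -36 and -205 summed to 98.3% (r of -0.947) and those at +625 and +412 to 96.4% (r of -0.921). Srebf1, encoding SREBP-1, gave 99.6% for +363 and +516 (r of -0.954), and Cpt1a, the liver-type carnitine palmitoyltransferase, 98.2% for +1729 and +1884 (r of -0.957). Abcg1, a cholesterol exporter, gave 90.1% for -12 and +113 (r of -0.753). The fragments of Cpt1b did not: +600 with +392 summed to 148% (r of 0.580) and +392 with +279 to 160% (r of 0.754). At a fragment whose ends sum to 100%, a higher level at one end is a lower level at the other. Members had 23 CCGG sites in island promoters, and the mean level of 12 of them lay between 40 and 60%. In the whole series 61.9% of such sites did, beside 16.4% of island promoter sites outside CCGG. What sets the sum was not tested, and the levels at CCGG sites, which include Fads3 at +218, Abca1 at +674 and many of the sites nearest to a start, may therefore not be the methylation of that CpG alone. Of the 151 tested member sites 106 lie outside CCGG. There the counts at an unadjusted p under 0.05 were 5, 7, 22 and 2 in the 4 comparisons, beside 8.31%, 10.5%, 28.1% and 3.65% of all sites outside CCGG.

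**Figure D4:**
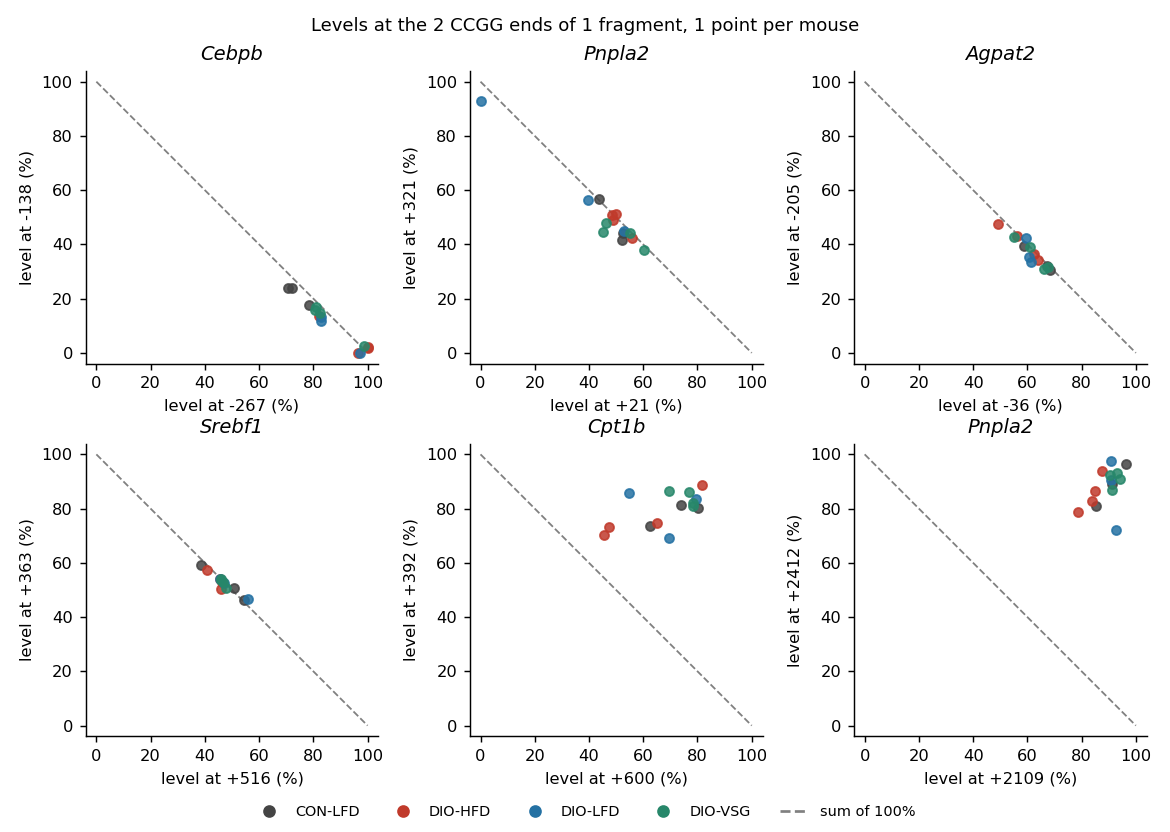
Methylation level at one CCGG end of an MspI fragment against the level at the other end (percent on both axes), 1 point per mouse coloured by group, for 6 member fragments, with a dashed line where both ends sum to 100%. The points of the Cebpb pair at -267 and -138 and the Pnpla2 pair at +21 and +321 fall along that line, and those of the Cpt1b pair at +600 and +392 lie above it.

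Lipolysis was led by Lipe, which encodes hormone-sensitive lipase, the diglyceride lipase activated by catecholamines (chr7:25379527-25398710, - strand). At the intron site +2203 CON-LFD had 78.6, 74.5 and 73.7%, DIO-HFD 83.3, 56.3, 51.3 and 46.7%, DIO-LFD 76.1, 71.7 and 77.9% and DIO-VSG 85.1, 88.4, 85.4 and 84.0%. Every DIO-VSG mouse lay above every DIO-HFD mouse, replicate 1 included. The mean M was 1.89 ± 0.45 (SE) higher in DIO-VSG, with an unadjusted p of 0.000947 and an adjusted p of 0.150 (limma). Without replicate 1 the adjusted p was 0.000823, and it was 0.0132 for CON-LFD and 0.00922 for DIO-LFD against DIO-HFD.

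The Lipe exon ran the other way. At +3926, chosen after its values were seen, DIO-HFD had 59.0, 82.7, 86.7 and 80.1%, with 74.0, 66.8 and 75.5% in CON-LFD, 68.7, 73.2 and 71.6% in DIO-LFD and 61.0, 60.3, 63.8 and 66.8% in DIO-VSG. DIO-HFD replicates 2 to 4 were above all other mice and replicate 1 was below them all. At +3975, in the same exon, the DIO-HFD levels were 49.7, 73.7, 81.7 and 85.5% and the DIO-VSG levels 62.2, 62.8, 61.7 and 67.2% (adjusted p of 0.324, and 0.0128 without replicate 1; limma). DIO-HFD replicates 2 to 4 were above all other mice at 3 of 151 member sites (1.99%, beside 3.59% of all tested sites), these 2 and Fasn at +1295, and below all other mice at 27 (17.9%, beside 18.4%). In DIO-VSG against DIO-HFD the difference in M at +3926 was -1.07 (unadjusted p of 0.0173, adjusted p of 0.155, and 0.00214 without replicate 1; limma). Averaging the gene hid this: the Lipe mean was 52.6% ± 2.03 in DIO-HFD and 57.3% ± 1.78 in DIO-VSG (SD, n = 4 each).

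Near the Lipe start, at -79, DIO-LFD had 51.0, 49.2 and 53.1%, DIO-HFD 45.2, 31.9, 37.3 and 32.6%, CON-LFD 47.9, 43.9 and 33.2% and DIO-VSG 43.6, 48.3, 46.2 and 48.2%. DIO-LFD did not overlap with DIO-HFD (M higher by 0.84, unadjusted p of 0.0165, adjusted p of 0.494, and 0.0308 without replicate 1; limma). The site lies in a noncoding exon of 4732471J01Rik as well as in Lipe.

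Among the genes of fatty acid synthesis, Fasn, fatty acid synthase, had means of 75.7, 74.1 and 69.8% in CON-LFD, 77.3, 67.1, 71.9 and 73.0% in DIO-HFD, 78.9, 67.4 and 75.2% in DIO-LFD and 77.1, 76.3, 77.7 and 77.0% in DIO-VSG. DIO-VSG lay above CON-LFD and above DIO-HFD replicates 2 to 4, and DIO-HFD replicate 1 and DIO-LFD overlapped with it. Without DIO-HFD replicate 1 a single Fasn site of 18, at +1394, passed the adjusted threshold in DIO-VSG, beside 34.4% of all sites. Acacb, the acetyl-CoA carboxylase whose malonyl-CoA restrains CPT1, had 48.4, 49.8 and 46.7% in CON-LFD, 55.8, 46.0, 42.2 and 42.3% in DIO-HFD, 47.3, 47.9 and 49.4% in DIO-LFD and 53.7, 53.9, 53.0 and 52.3% in DIO-VSG over 3 tested sites. DIO-VSG lay above DIO-HFD replicates 2 to 4 and below replicate 1 (M higher by 0.53 ± 0.21, unadjusted p of 0.0273, adjusted p of 0.174, and 0.00380 without replicate 1; limma). Acacb was also among the 2 genes with the smallest p in DIO-VSG against DIO-LFD, at an unadjusted p of 0.125.

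Mlxipl encodes ChREBP, the glucose-responsive activator of lipogenic genes. Its mean over 3 sites was 74.6, 71.8 and 72.2% in CON-LFD, 74.3, 57.3, 59.1 and 59.5% in DIO-HFD, 74.9, 60.6 and 71.8% in DIO-LFD and 70.6, 72.3, 69.9 and 70.6% in DIO-VSG. DIO-HFD replicates 2 to 4 were the 3 lowest of the 14 mice, and DIO-LFD replicate 2 came next. Mlxipl had the smallest p of the member genes in CON-LFD against DIO-HFD (M higher by 0.73 ± 0.30, unadjusted p of 0.0298, adjusted p of 0.659, and 0.0311 without replicate 1; limma).

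Desaturation, uptake and triglyceride synthesis each gave 1 member by the naming rule. Fads3, a fatty acid desaturase family member, has a single site at +218, in a promoter CpG island and within CCGG. It had 50.8, 50.5 and 52.0% in CON-LFD, 48.7, 52.8, 51.6 and 50.0% in DIO-HFD, 47.3, 41.1 and 36.9% in DIO-LFD and 45.7, 44.2, 46.0 and 37.5% in DIO-VSG. Both weight-loss groups lay below both groups kept on 1 diet, without overlap, and DIO-HFD replicate 1 did not stand apart. Relative to DIO-HFD the difference in M was -0.52 ± 0.19 in DIO-LFD (unadjusted p of 0.0202, adjusted p of 0.551) and -0.42 ± 0.18 in DIO-VSG (0.0353 and 0.185; limma). Without replicate 1 the adjusted p was 0.0817 and 0.0752.

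Fabp5 encodes a fatty acid binding protein of adipocytes and macrophages, and its sites are all distal. At -16875 DIO-LFD had 85.9, 90.5 and 81.8%, DIO-HFD 74.0, 73.8, 58.6 and 76.5%, CON-LFD 79.5, 85.7 and 77.7% and DIO-VSG 75.8, 83.4, 79.7 and 79.5%. DIO-LFD lay above every DIO-HFD mouse (M higher by 1.31 ± 0.37, unadjusted p of 0.00354, adjusted p of 0.494, and 0.0348 without replicate 1; limma). Lpin1 encodes lipin 1, the phosphatidate phosphatase that makes diglyceride, and its site at +174374 is intergenic. There CON-LFD had 94.2, 88.1 and 86.0% and DIO-HFD 73.0, 85.7, 69.7 and 79.1%, without overlap and with the smallest p of any member site in that comparison (0.00524 in limma, with an adjusted p of 0.611, or 0.0706 without replicate 1).

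The cholesterol efflux genes had 3 tested sites, all within CCGG, and none passed the adjusted threshold. Abcg1 at -12 had 27.4, 40.0 and 25.6% in DIO-LFD, 49.3, 57.1, 52.9 and 48.4% in DIO-HFD, 38.1, 61.3 and 42.7% in CON-LFD and 43.9, 34.2, 55.9 and 50.8% in DIO-VSG. DIO-LFD lay below all DIO-HFD mice (difference in M -1.26 ± 0.41, unadjusted p of 0.00862, adjusted p of 0.494, and 0.0606 without replicate 1; limma). At the other end of that fragment, +113, the groups overlapped. DIO-LFD had 43.9, 51.1 and 64.4% there and DIO-HFD 48.9, 35.7, 41.2 and 48.3%. Between these groups the Abcg1 mean M differed by -0.35 (adjusted p of 0.551 in limma, and 0.295 without replicate 1). Abca1, which exports cholesterol to apolipoprotein A-I, had at +674 51.9, 50.7 and 46.2% in CON-LFD, 47.8, 59.8, 50.0 and 43.5% in DIO-HFD, 60.7, 45.5 and 50.0% in DIO-LFD and 13.3, 41.7, 41.7 and 41.7% in DIO-VSG. All 4 DIO-VSG mice were below the other 10, and replicate 1 was far below its group. Against DIO-LFD the difference in M was -1.13 ± 0.50 (unadjusted p of 0.0407, adjusted p of 0.945; limma), and -0.59 without DIO-VSG replicate 1.

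DIO-VSG and DIO-LFD mice, both after weight loss on the 10% fat diet, differed at few member sites. At -45376 of Fabp5 DIO-VSG had 100, 100, 88.2 and 93.8% and DIO-LFD 83.3, 78.3 and 80.0% (M higher by 2.96, unadjusted p of 0.0129, adjusted p of 0.945; limma). No other member site had a smaller p in that comparison. Pnpla2 at +2329 had 91.3, 86.7, 88.9 and 95.5% against 85.7, 60.0 and 79.6% (M higher by 1.55, unadjusted p of 0.0360). Pnpla2 at +321 had 44.1, 37.8, 47.8 and 44.4% against 56.3, 92.9 and 44.9%, a difference in M of -1.57 (unadjusted p of 0.0374). That difference rested on DIO-LFD replicate 2, whose other fragment end at +21 read 0%, and without that mouse it was -0.40.

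Taken per gene, Cpt1b and Cfd count once each. A higher mean M than in DIO-HFD was found for 20 (CON-LFD), 18 (DIO-LFD) and 18 (DIO-VSG) of 29 member genes, beside 70.7%, 70.0% and 74.6% of 11825 genes, and for 23 in DIO-VSG against DIO-LFD, beside 63.6%. In DIO-VSG against DIO-HFD the median difference in M was 0.096 over member genes and 0.40 over all genes, whereas over sites it was 0.58 and 0.48. At an unadjusted p under 0.05, 2, 1, 4 and 1 of 29 member genes differed in the 4 comparisons, beside 6.89%, 8.90%, 24.7% and 4.85% of 11825 genes, and no gene of the 11825 passed the adjusted threshold. Without DIO-HFD replicate 1 adjusted calls were 2 in CON-LFD (Cfd and Mlxipl), 2 in DIO-LFD (Cfd and Cpt1b) and 8 in DIO-VSG (Cfd, Acacb, Cpt1b, Cebpb, Plin4, Mlxipl, Elovl5 and Fabp5), beside 10.2%, 12.9% and 30.3% of all genes. Plin4, a lipid droplet coat protein, and Elovl5, a fatty acid elongase, rest on 1 tested site each. DIO-VSG against DIO-LFD gave 0 under the same setting.

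Measured against each mouse's own median, 6, 9 and 8 of 29 member genes were higher than in DIO-HFD, beside 46.5%, 46.5% and 44.3% of all genes, and 14 in DIO-VSG against DIO-LFD, beside 43.7%. In DIO-VSG against DIO-HFD 6 member genes had an unadjusted p under 0.05, all lower, beside 13.1% of all genes, and 0 passed after adjustment. These were Abca1 (-1.51, unadjusted p of 0.00713, with DIO-VSG replicate 1 far below its group), Fads3, Acly (-0.70), Abcg1 (-0.67), Agpat2 (-0.54) and Fads1 (-0.42), of which Acly makes cytosolic acetyl-CoA and Fads1 is a fatty acid desaturase. Every site of these 6 genes lies within CCGG. The Agpat2 sites include both ends of the fragments that summed to 96.4 and 98.3%, and the Abcg1 sites are the ends of the fragment that summed to 90.1%. A mean over both ends of such a fragment can move little, and centring subtracts the shift of all sites from it. The lower values of Agpat2 and Abcg1 after centring cannot be told apart from that shift. Before centring Agpat2 differed by -0.058 and Fads1 by 0.059 (limma, unadjusted p of 0.677 and 0.758), and Fads1 thus changed sign. In DIO-VSG against DIO-HFD the difference in mean M after centring was 0.57 for Cpt1b and 0.34 for Cfd. These values were smaller than before centring by the shift of all sites. The difference after centring was 0.049 for Acacb, 0.041 for Mlxipl and -0.00091 ± 0.14 (SE) for Cebpb. The Cebpb mean was thus no longer higher. Fads3 stood lower, at -0.81 in DIO-LFD (unadjusted p of 0.0114, adjusted p of 0.578) and -0.91 in DIO-VSG (0.00354 and 0.202 in limma). Its margins, at a site within CCGG, were wider than before centring by the same shift of all sites. At promoter CpG island sites of the whole series DIO-VSG exceeded DIO-HFD by a median of 1.12 percentage points, beside 6.08 outside promoters. Centring on the median of all sites therefore lowers genes of that class. In CON-LFD Mlxipl and Cfd were higher by 0.45 and 0.42, with unadjusted p of 0.0306 and 0.0315 and an adjusted p of 0.763 for both.

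Another list of 72 lipid genes, written for this work outside the 57, had 31 genes with a site and 159 tested sites. At an unadjusted p under 0.05 it gave 11 (9 higher), 14 (10 higher), 42 (38 higher) and 9 (7 higher) sites in the 4 comparisons and none after adjustment. As shares these were 6.92, 8.81, 26.4 and 5.66%, beside 7.76%, 10.1%, 25.0% and 3.98% of all sites. Without DIO-HFD replicate 1 it gave 13, 21, 61 and 0 adjusted calls, or 8.18, 13.2 and 38.4% in the first 3 comparisons, beside 12.0%, 14.6% and 34.4%. Its smallest p in each comparison was at sites of Rxra, the partner of PPARγ and LXR, for the 3 comparisons with DIO-HFD (+64353, +14195 and +8073), and of Agpat4 at -45415 for DIO-VSG against DIO-LFD. At Rxra +14195 the DIO-LFD mice had 96.8, 92.3 and 97.9% and the DIO-HFD mice 81.2, 84.7, 82.9 and 79.6% (M higher by 2.17, adjusted p of 0.430; limma).

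Methylation at marker genes of other cell types also varied between groups. Genes are counted here where they had a tested site. The list means at 7 lymphocyte genes of 15 ranged from 62.8 to 71.0% in DIO-HFD and from 54.3 to 60.9% in DIO-VSG. They ranged from 59.3 to 65.2% in CON-LFD and from 56.6 to 72.9% in DIO-LFD. At 4 endothelial genes of 6 they ranged from 42.6 to 55.4% in DIO-HFD, replicate 1 being the highest, and from 55.0 to 58.1% in DIO-VSG. The endothelial ranges were 49.2 to 53.6% in CON-LFD and 48.7 to 52.1% in DIO-LFD, within that of DIO-HFD. At 8 epithelial genes of 13 the list means ranged from 59.5 to 63.7% in DIO-HFD and from 62.9 to 66.5% in DIO-VSG. They ranged from 59.0 to 63.0% in CON-LFD and from 59.5 to 63.5% in DIO-LFD. Only 1 macrophage gene of 8 had a tested site. Over all tested sites the means of single mice ranged from 57.2 to 66.2% in DIO-HFD and from 64.2 to 64.8% in DIO-VSG. These lists were written after the data had been seen, methylation of a marker is not a count of cells, and their part in the member differences was not tested.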

How the data were processed

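RRBS methylation levels were analysed for 14 mice in 4 groups. In the authors' methods, Bismark was the aligner (genome mm10), samtools sorted the alignments and methylKit made the methylation calls. The authors removed sites of extreme coverage and left out 2 outlier mice. They deposited a single table of methylation levels as a fraction (0 to 1) for each CpG site and mouse, with the nearest gene and its promoter, exon, intron and island annotation. It holds no read counts, so the depth per sample is unknown, and no intervals, detection floors or coverage minimum could be computed. Whether the filled-in ends of MspI fragments were trimmed is not given in the sources used here.

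A site was tested where its level had a standard deviation of 0.05 or more. Levels were converted to M = log2((fraction + 0.01)/(1 - fraction + 0.01)) and fitted with limma 3.58.1 (R 4.3.3) on all 14 mice in 1 fit of 4 groups, and p-values (two-sided) were adjusted by Benjamini-Hochberg over all 65610 sites. Gene values were the mean M over a gene's tested sites (11825 genes). The fits were tested on simulated data. Tables were handled with pandas 2.3.3, and sequences were read from GRCm38.p6 with pysam 0.24.0 and annotated with GENCODE.

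Sites named per comparison were the 4 with the smallest p, genes the 2 with the smallest p, plus the 5 sites of largest standard deviation. The members, lists and tests were chosen with earlier results of these data known. Alternatives were another offset, levels in place of M, limma's trend and robust options, fits of 2 groups alone, centring each mouse, other filters, a replicate block, leaving out each mouse and, added after seeing the data, only sites outside CCGG.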

Additional observations from a re-analysis of the deposited data

Results flagged for a closer look

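Of 54 sets of values within a group of 4 mice, Dixon's test (gap to the nearest mouse as a share of the group's range) marked 9. Chance would mark about 2.7 of 54 independent sets. These sets share sites and fragments and include sites named for a small p, so the 9 cannot be read against that number. The mean over all tested sites of DIO-HFD replicate 1 had a gap of 0.953, and its Mlxipl mean one of 0.872.

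At single sites the mice that stood apart were DIO-HFD replicate 2 at Cebpb -138 (0.838), DIO-HFD replicate 3 at Fabp5 -16875 (0.846), DIO-VSG replicate 4 at Cpt1b -641 (0.848), and DIO-VSG replicate 3 at Cebpb -267 (0.902) and at Cebpb -138 (0.848), the ends of 1 fragment. At Abca1 +674 DIO-VSG replicate 1 had 13.3% where the other 3 mice had 41.7%, a gap of 1, and the Abca1 gene mean (also 1) is that same site.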

How the results depend on the processing

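No direction among the 24 sites and genes named by smallest p in a comparison reversed under any alternative run. They were picked for a small p in these same data, which favours a stable direction. The gene means of Cebpb and Fads1, whose sign changed on centring in DIO-VSG against DIO-HFD, were not among these 24. None of the 24 passed the adjusted threshold of 0.05 in the main fit. Of their values under the alternatives, 518 still did not pass it and 12 did. All 12 crossings came without DIO-HFD replicate 1. In the order CON-LFD, DIO-LFD and DIO-VSG against DIO-HFD, then DIO-VSG against DIO-LFD, leaving out each mouse gave 0 to 7852, 1 to 9551, 2 to 22557 and 0 to 13 adjusted calls over all sites, 4 to 49, 5 to 49, 10 to 67 and 3 to 8 member sites, and 0 to 6, 0 to 7, 1 to 11 and 0 to 2 member genes at an unadjusted p under 0.05. The highest counts came without DIO-HFD replicate 1, except the 13, which came without DIO-LFD replicate 2. The lowest counts of member sites came without CON-LFD replicate 1 (4), DIO-HFD replicate 2 (5 and 10) and DIO-VSG replicate 1 (3), and those of member genes without DIO-HFD replicate 2 or DIO-LFD replicate 3. Fits of 2 groups alone gave 2, 16, 47 and 21 adjusted calls over all sites, 5 and 3 member sites in the first 2 comparisons and 0, 0 and 2 member genes in the first 3. An offset of 0.1 gave 0, 4 and 0 adjusted calls in the last 3 comparisons, 13 member sites and 2 member genes in DIO-LFD. Levels in place of M gave 0 adjusted calls in DIO-LFD and in DIO-VSG against DIO-LFD, 16 member sites and 3 member genes in DIO-LFD and 8 member genes in DIO-VSG. The trend and robust options gave 0 adjusted calls in each of the last 3. Centring each mouse gave 13 member sites (4 higher, 9 lower) and 2 member genes (0 higher) in DIO-LFD. In DIO-VSG it gave 16 member sites (6 higher, 10 lower). Without the filter there were 15 member sites in DIO-LFD and 1 adjusted call in DIO-VSG against DIO-LFD. With a filter of 0.1, which leaves fewer sites, adjusted calls were 1, 5 and 0 in the last 3, member sites 1, 3, 6 and 2, and member genes 0 in CON-LFD and 2 in DIO-VSG. Outside CCGG, a smaller set chosen after seeing the data, adjusted calls were 1, 0 and 0 in the last 3, member sites 5 in CON-LFD and 2 in DIO-VSG against DIO-LFD, and member genes 1, 0 and 0 in CON-LFD, DIO-LFD and DIO-VSG against DIO-LFD. Replicate numbers were not taken to pair mice. Over 19 same-numbered pairs deviations correlated between -0.0804 and 0.202, with 4 above 0.1, and over other pairs between -0.289 and 0.191. A shared batch cannot be told from these values. The replicate block gave 1 adjusted call in DIO-LFD and 0 in DIO-VSG against DIO-LFD. It gave 1 and 0 member genes in CON-LFD and in DIO-VSG against DIO-LFD. For the other settings the cause was not tested. The member counts at an unadjusted p in this paragraph are given without the share of all sites under the same setting. They show how far the calls moved with the setting and are no result about the members. A coverage minimum could not be tried, since the table gives no read counts, and with 3 or 4 mice a group small differences in level were not detectable.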
